A study of Triticum aestivum with 27 samples.

Results

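The Waxy genes of bread wheat encode granule-bound starch synthase I (GBSSI), and 3 identifiers of the deposited table, of 153699 in all, were taken as the copies Wx-A1 (TraesCS7A01G070100, chromosome 7A), Wx-B1 (TraesCS4A01G418200, chromosome 4A) and Wx-D1 (TraesCS7D01G064300, chromosome 7D). They were chosen by identifier, with earlier results of these data known. The table itself gives no Waxy name to any of them, so the names rest on the listed identifiers, and the chromosomes are read from the identifiers. GBSSI sits inside the starch granule and extends amylose, the largely unbranched part of starch, while soluble synthases and branching enzymes build the branched amylopectin. In the wheat grain it works mainly in the endosperm while starch is being laid down. Lines without any working copy make waxy starch with little amylose, and lines that lack 1 copy are common among cultivars.

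To compare resistance to sprouting on the spike, RNA from whole spikes was sequenced in Baipimai, which is resistant and white-grained, in red-grained Shengsimai, which is highly resistant, and in white-grained Zhoumai18, which is highly susceptible. All spikes were cut at wax ripeness and soaked. They were frozen directly (0 h) or after 48 or 96 h at 22 °C and 95% relative humidity, so the 0 h spikes had been soaked too. Each of the 9 groups held 3 spikes, each sequenced as 1 library. The number in the Baipimai library names, read as a number in the study's variety list, belongs to another white-grained variety, Baimai(Xichuan). The numbers of Shengsimai and Zhoumai18 match that list. The identity of the Baipimai libraries was not tested, and the deposited titles are followed here. A variety is a single genotype here, and a whole spike mixes grains with chaff and stem tissue, so fewer cells of a type and less RNA per cell cannot be told apart. Total counts were 45590141 to 55765523 per library (median 48953169). Genes for the seed storage globulin Glo-3A (TraesCS4A01G296000 and TraesCS4A01G296100) had group means of 924 to 17131 FPKM, so RNA of this grain gene was present in every group, with the lowest level in Zhoumai18 at 96 h. GluD3-3 (TraesCS1D01G000300), the only other storage protein gene named in the table that was examined, varied in another order, with group means from 0.131 FPKM in Shengsimai at 0 h to 32.5 in the libraries labelled Zhoumai18 at 0 h and 0.321 in Zhoumai18 at 96 h. Of 9 identifiers listed for endosperm transcription factors, 8 had a mean under 1 FPKM (list range 0.0112 to 1.12), and 6 were at 0 in at least 1 group. Grain markers thus moved with variety and time, and their part in the Waxy values was not tested.

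The libraries labelled Zhoumai18 at 0 h stood apart from the other libraries of that variety. Of 321 genes that had counts only in Zhoumai18 at 48 and 96 h, 224 (69.8%) exceeded 2 counts in a 0 h library labelled Zhoumai18. The same share was 97.5% of 157 genes for Baipimai and 97.9% of 282 genes for Shengsimai. The libraries labelled Zhoumai18 at 0 h also held 40 of the 157 Baipimai genes (25.5%) and 65 of the 282 Shengsimai genes (23.0%), whereas the other mismatched pairs reached at most 9.03%. They lacked 63 genes (at most 2 counts in each library) that had at least 50 counts in each of the other 24 libraries, against at most 6 such genes in any other group. They held 117 genes absent from all other groups and 432 absent from the other times of the variety, but Zhoumai18 at 96 h held more of both (233 and 1031), so these counts do not set the 0 h libraries apart. The cause was not tested. The gene sets were chosen by counts at 48 and 96 h, so a gene that changes with time can also be missing at 0 h. Every statement on Zhoumai18 at 0 h below rests on these 3 libraries. Whether they are of the same genotype as the later Zhoumai18 libraries was not tested, and this limits all changes from 0 h in Zhoumai18.

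**Figure D1:**
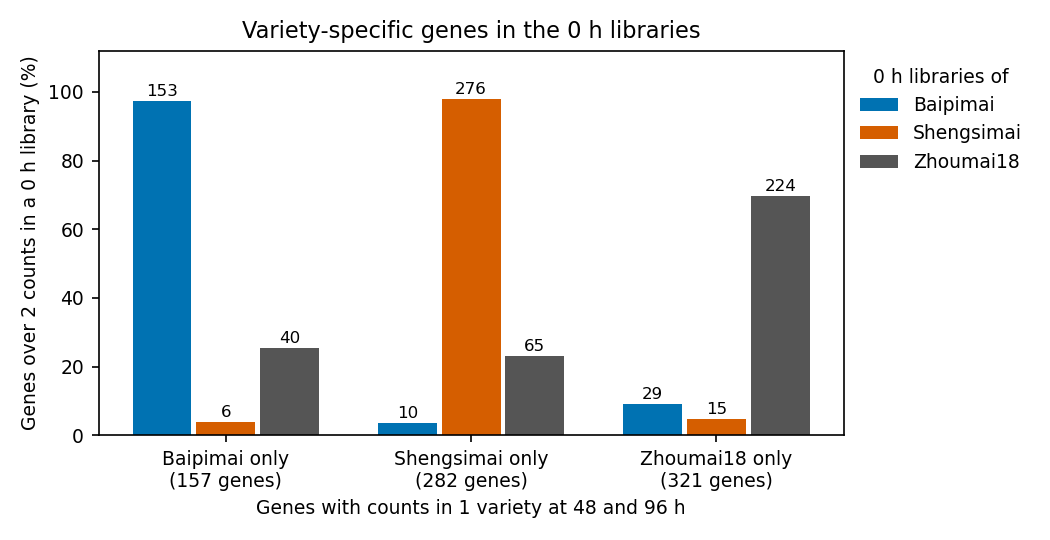
Share (%) of genes seen in 1 variety only at 48 and 96 h that exceeded 2 counts in a 0 h library of each variety. Bars are 0 h libraries by label, and the numbers above them are genes. Baipimai and Shengsimai at 0 h held 153 of 157 and 276 of 282 of their own genes, and the libraries labelled Zhoumai18 held 224 of 321.

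All 3 Waxy copies were weakly expressed. Together they took 2343 of 1334072595 counts, with 500 for Wx-A1, 707 for Wx-B1 and 1136 for Wx-D1. On the FPKM scale, which is per gene length and library size, the mean over all libraries was 0.184 for Wx-A1, 0.259 for Wx-B1 and 0.428 for Wx-D1. Only Wx-D1 ever reached 1 FPKM, in the 3 Shengsimai libraries at 96 h. Wx-A1 was at 0 counts in 6 libraries and Wx-B1 in 4, and Wx-D1 had counts in all 27. These means exceeded those of 40.6%, 44.8% and 51.2% of the genes with any count. Precision is limited by these low counts, and reads of near-identical homoeologous copies may have been assigned to the wrong copy, so values of a single copy are uncertain and the sum of the 3 is given too.

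**Figure D2:**
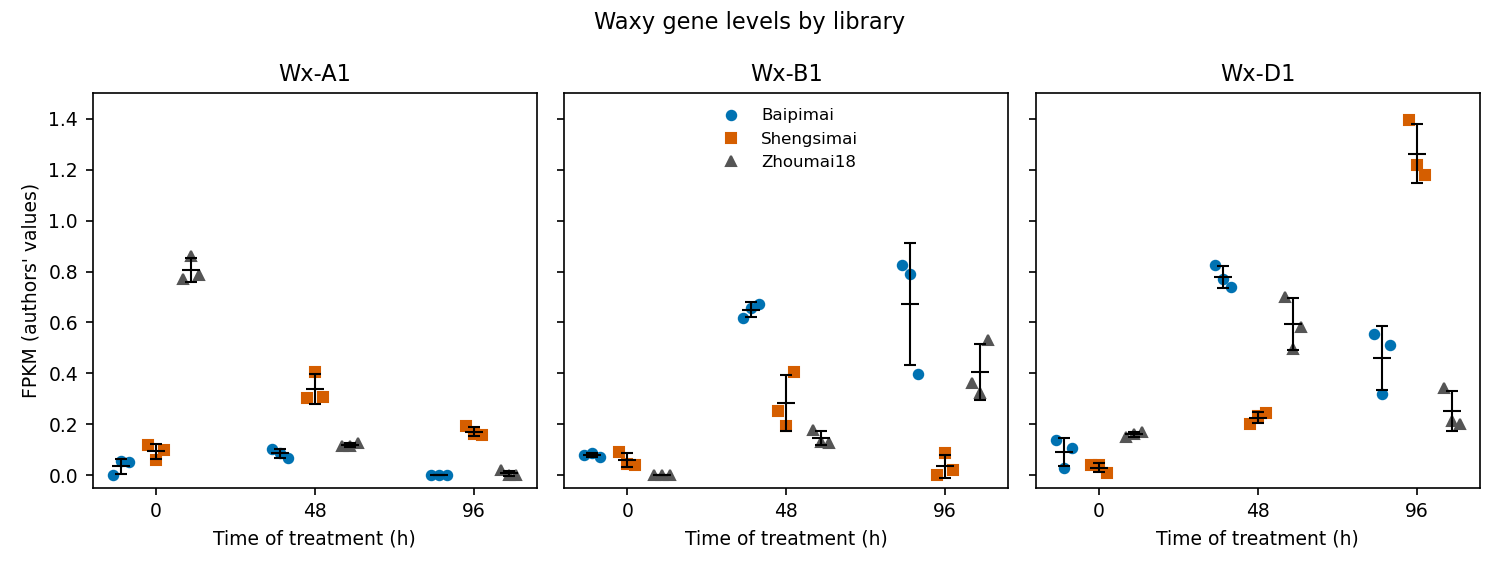
FPKM of Wx-A1, Wx-B1 and Wx-D1 (y axis) against time of treatment in hours (x axis), 1 point per library, with the mean and SD of 3 libraries. Wx-A1 was highest in the libraries labelled Zhoumai18 at 0 h (mean 0.807), Wx-B1 in Baipimai at 48 and 96 h (0.649 and 0.672) and Wx-D1 in Shengsimai at 96 h (1.26).

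The copies peaked in different groups. Wx-A1, the copy on 7A, was highest in the libraries labelled Zhoumai18 at 0 h at 0.807 ± 0.048 FPKM (SD, n = 3), followed by Shengsimai at 48 h (0.338 ± 0.060) and 96 h (0.170 ± 0.018), and these 3 groups did not overlap. Zhoumai18 at 48 h (0.119), Shengsimai at 0 h (0.0936) and Baipimai at 48 h (0.0850) came next as a run of overlapping neighbours. Baipimai at 0 h (0.0349), Zhoumai18 at 96 h (0.00662) and Baipimai at 96 h (0) formed another such run below them. Wx-B1, the copy on 4A, was highest in Baipimai at 96 h (0.672 ± 0.24) and 48 h (0.649 ± 0.030), which overlapped. Zhoumai18 at 96 h (0.406) and Shengsimai at 48 h (0.282) came next and overlapped each other. Zhoumai18 at 48 h (0.144) stood apart from both sides, Baipimai at 0 h (0.0789), Shengsimai at 0 h (0.0588) and Shengsimai at 96 h (0.0353) overlapped, and the libraries labelled Zhoumai18 at 0 h had no Wx-B1 count at all. Wx-D1, the copy on 7D, led in Shengsimai at 96 h (1.26 ± 0.11), then in Baipimai at 48 h (0.778 ± 0.044), both apart from the next group. Zhoumai18 at 48 h (0.592), Baipimai at 96 h (0.461), Zhoumai18 at 96 h (0.252) and Shengsimai at 48 h (0.226) followed as a run of overlapping neighbours. The lowest Wx-D1 levels were at 0 h, with 0.161 in Zhoumai18, which stood apart, and 0.0914 in Baipimai and 0.0293 in Shengsimai, which overlapped.

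At 0 h, Wx-A1 and Wx-B1 gave opposite pictures. Wx-A1 had 0, 6 and 5 counts in the Baipimai libraries, 13, 7 and 11 in Shengsimai and 72, 82 and 80 in Zhoumai18. Every library labelled Zhoumai18 lay far above both resistant varieties, and Baipimai lay below Shengsimai. Wx-B1 had 8, 10 and 8 counts in Baipimai and 10, 5 and 5 in Shengsimai, and 0 in each library labelled Zhoumai18. Wx-D1 had 13, 4 and 11 counts in Baipimai, 4, 5 and 2 in Shengsimai and 15, 16 and 18 in Zhoumai18. Here Baipimai overlapped with Shengsimai, Shengsimai lay below Zhoumai18, and Baipimai lay just below Zhoumai18 in counts but overlapped with it once the counts were scaled.

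Tests were made with edgeR's quasi-likelihood test over 135713 genes with Benjamini-Hochberg adjustment, and fold changes are log2 differences of scaled counts ± standard error. For Baipimai against Zhoumai18 at 0 h, which called 32.1% of all genes, Wx-A1 was lower in Baipimai (log2 fold change -4.23 ± 0.51, adjusted p = 2.1e-08) and Wx-B1 was at least 6.39-fold higher (26 counts over the group against 0, exact 95% lower limit for counting error, adjusted p = 8.6e-05). The Wx-D1 difference of -0.64 ± 0.39 did not pass (adjusted p = 0.25). For Shengsimai against Zhoumai18 at 0 h, with 37.0% of all genes called, Wx-A1 (-2.60 ± 0.44, adjusted p = 8.3e-06) and Wx-D1 (-1.83 ± 0.47, adjusted p = 0.0019) were lower in Shengsimai, and Wx-B1 was at least 4.66-fold higher (20 counts against 0, adjusted p = 2.0e-04). Between the resistant varieties, where 26.9% of all genes were called, only Wx-A1 passed, lower in Baipimai by edgeR (-1.63 ± 0.60, adjusted p = 0.040). This call was lost without Baipimai replicate 1 (-1.10, adjusted p = 0.18), Shengsimai replicate 1 (-1.42, adjusted p = 0.14) or replicate 3 (-1.58, adjusted p = 0.086), and in the fit without the libraries labelled Zhoumai18 at 0 h (-1.64, adjusted p = 0.069). The values for Wx-B1 and Wx-D1 between them were 0.23 ± 0.57 and 1.19 ± 0.52 by edgeR (adjusted p = 0.99 and 0.089), and that for Wx-D1 passed without Baipimai replicate 2 (1.59, adjusted p = 0.017) and with total counts in place of scaling factors (1.37, adjusted p = 0.039).

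At 48 h, Wx-B1 was highest in Baipimai and Wx-A1 in Shengsimai. Wx-B1 had 61, 64 and 72 counts in Baipimai, 29, 20 and 43 in Shengsimai and 18, 13 and 12 in Zhoumai18. The 3 varieties did not overlap, in the order Baipimai, Shengsimai, Zhoumai18. Wx-A1 had 11, 9 and 7 counts in Baipimai, 34, 43 and 32 in Shengsimai and 12 in each Zhoumai18 library. Shengsimai lay above both white-grained varieties. Wx-D1 had 82, 75 and 79 counts in Baipimai, 23, 25 and 26 in Shengsimai and 68, 49 and 55 in Zhoumai18. For this copy Shengsimai was the low variety and its libraries overlapped with neither of the others.

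Baipimai exceeded Zhoumai18 at 48 h in Wx-B1 (2.06 ± 0.41, edgeR adjusted p = 1.2e-04), where 34.0% of all genes were called, and Wx-A1 (-0.52 ± 0.51) and Wx-D1 (0.33 ± 0.27) did not pass (adjusted p = 0.49 and 0.38). Shengsimai exceeded Zhoumai18 at 48 h in Wx-A1 (1.57 ± 0.44, adjusted p = 0.0041) and was lower in Wx-D1 (-1.23 ± 0.30, adjusted p = 8.1e-04), with 39.6% of all genes called. Its Wx-B1 value of 1.07 ± 0.43 passed narrowly (adjusted p = 0.048). The Wx-B1 call was lost without Shengsimai replicate 1 (1.14, adjusted p = 0.064), Shengsimai replicate 3 (0.72, adjusted p = 0.27), Zhoumai18 replicate 2 (0.99, adjusted p = 0.13) or Zhoumai18 replicate 3 (0.96, adjusted p = 0.13). Between the resistant varieties at 48 h, with 37.9% of all genes called, Baipimai had less Wx-A1 (-2.09 ± 0.46, adjusted p = 3.3e-04) and more Wx-D1 (1.57 ± 0.29, adjusted p = 3.1e-05) than Shengsimai. Wx-B1 was also higher in Baipimai (0.99 ± 0.38, adjusted p = 0.038), a call that held in the fit without Shengsimai replicate 3 and was lost in the fits without each of the other 5 libraries (0.77 to 1.03, adjusted p = 0.064 to 0.18).

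At 96 h, Shengsimai and the white-grained varieties differed in opposite directions in Wx-B1 and Wx-D1. Wx-D1 had 52, 31 and 48 counts in Baipimai, 129, 113 and 113 in Shengsimai and 38, 22 and 20 in Zhoumai18. All Shengsimai libraries lay above all others. Wx-B1 had 78, 76 and 38 counts in Baipimai, 0, 8 and 2 in Shengsimai and 41, 34 and 52 in Zhoumai18. Shengsimai lay below both others, which overlapped. Wx-A1 had no count in Baipimai, 18, 16 and 15 in Shengsimai and 3, 0 and 0 in Zhoumai18. Thus only Shengsimai had Wx-A1 counts in all its libraries at this time.

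Against Zhoumai18 at 96 h, with 57.6% of all genes called, Shengsimai had more Wx-D1 (2.45 ± 0.29, edgeR adjusted p = 1.9e-09) and less Wx-B1 (-3.32 ± 0.53, adjusted p = 1.7e-06). Wx-A1 was also higher in Shengsimai (49 against 3 counts, adjusted p = 3.7e-06), a ratio of 17.8 with an exact counting interval of 5.76 to 89.5. Against Baipimai, with 39.3% of all genes called, Shengsimai had more Wx-D1 (Baipimai minus Shengsimai -1.37 ± 0.27, adjusted p = 6.4e-05), less Wx-B1 (4.27 ± 0.52, adjusted p = 1.6e-08) and more Wx-A1, which was lower in Baipimai by at least 12.3-fold (0 and 49 counts, adjusted p = 1.3e-06). The size of the Wx-B1 differences rested on Shengsimai replicate 2, which held 8 of the 10 counts. Without it they were 5.90 against Baipimai and -4.96 against Zhoumai18, with the calls kept. All 3 Zhoumai18 counts of Wx-A1 were in replicate 1, so without it no fold can be given for this gene. Baipimai exceeded Zhoumai18 at 96 h, where 57.4% of all genes were called, in Wx-D1 (1.08 ± 0.30, adjusted p = 0.0023) and in Wx-B1 (0.94 ± 0.37, adjusted p = 0.030). The Wx-B1 call was lost without Baipimai replicate 1 (0.77, adjusted p = 0.13) or 2 (0.82, adjusted p = 0.11), without Zhoumai18 replicate 1 (0.88, adjusted p = 0.088) or 2 (0.81, adjusted p = 0.11), and with total counts in place of scaling factors (0.72, adjusted p = 0.098). For Wx-A1 the 2 groups held 0 and 3 counts, both at or under the floor of 3 that a count of 0 allows, so no fold is given (adjusted p = 0.14).

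**Figure D3:**
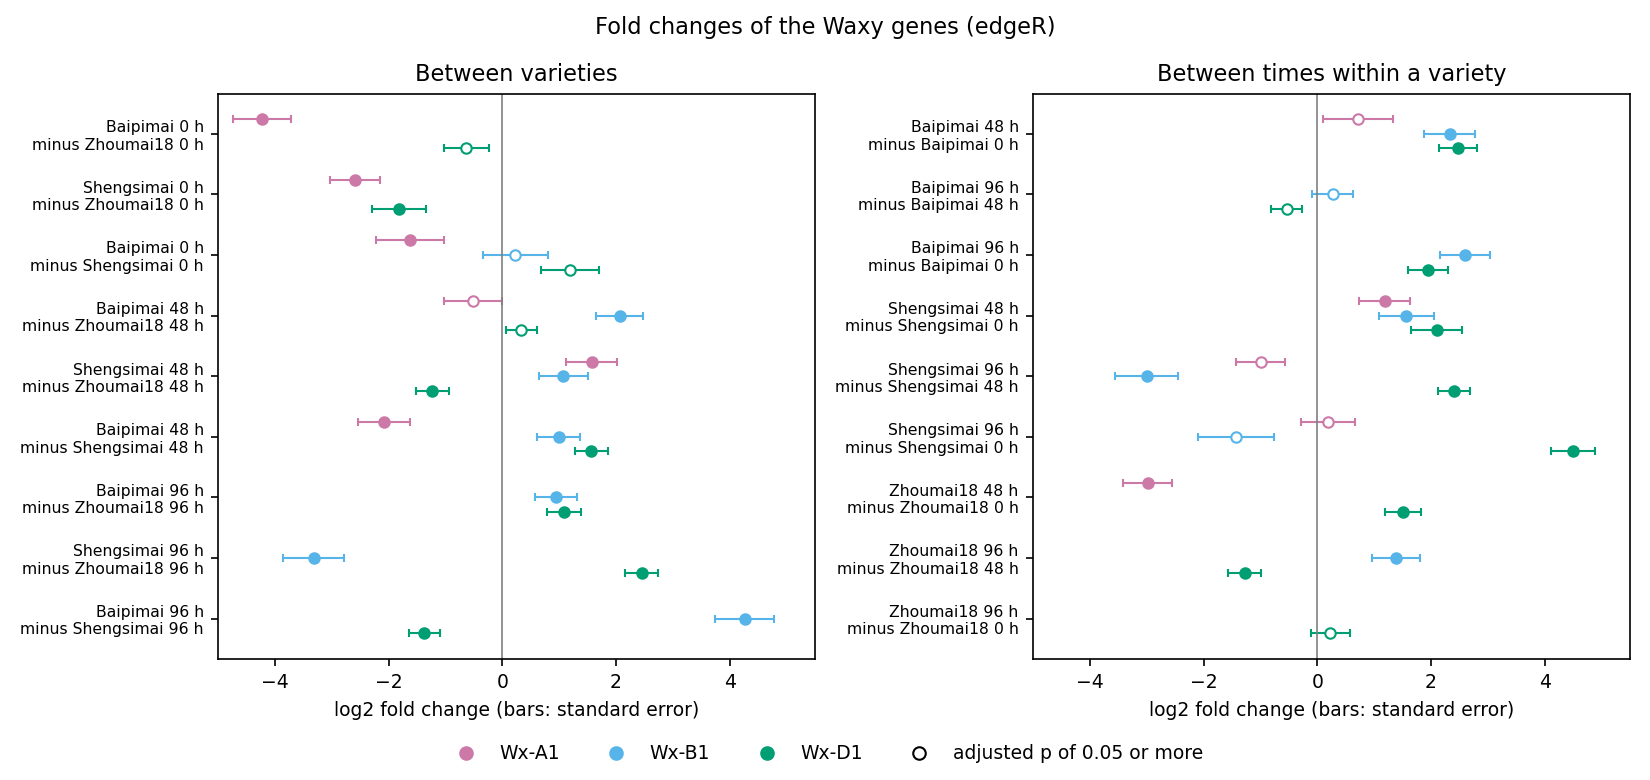
Log2 fold changes from edgeR (x axis) with standard error, for 9 comparisons between varieties (left) and 9 between times (right). Filled points passed an adjusted p of 0.05, and comparisons with a group at 3 counts or fewer are not drawn. Wx-D1 from 0 to 96 h in Shengsimai (4.51) and Wx-B1 in Baipimai against Shengsimai at 96 h (4.27) lie farthest right.

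Within Baipimai, Wx-B1 and Wx-D1 rose early and Wx-A1 was at 0 counts by 96 h. From 0 to 48 h, Wx-B1 rose by 2.33 ± 0.45 and Wx-D1 by 2.48 ± 0.34 (edgeR adjusted p = 3.8e-05 and 8.4e-08), with 45.7% of all genes called, and the 48 h libraries lay above those of 0 h in both. The Wx-A1 value of 0.72 ± 0.62 did not pass (adjusted p = 0.38). From 48 to 96 h, with 30.5% of all genes called, Wx-A1 was at least 5.502-fold lower (27 counts against 0, adjusted p = 1.7e-04), and Wx-B1 (0.27 ± 0.36) and Wx-D1 (-0.54 ± 0.27) did not pass (adjusted p = 0.69 and 0.15). The Wx-D1 value passed with total counts in place of scaling factors (-0.75, adjusted p = 0.031). From 0 to 96 h, with 44.1% of all genes called, Wx-B1 (2.60 ± 0.45) and Wx-D1 (1.94 ± 0.35) rose (adjusted p = 7.6e-06 and 1.5e-05). Wx-A1 was at least 2.41-fold lower at 96 h than at 0 h (11 counts against 0, adjusted p = 0.0019), although the groups overlapped because Baipimai replicate 1 at 0 h also had 0 counts, and the call was lost in a fit of these 2 groups alone (adjusted p = 0.062).

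Within Shengsimai all 3 copies rose by 48 h, and then Wx-B1 fell while Wx-D1 went on rising. From 0 to 48 h, with 45.8% of all genes called, the changes were 1.18 ± 0.45 for Wx-A1, 1.57 ± 0.49 for Wx-B1 and 2.10 ± 0.45 for Wx-D1 (edgeR adjusted p = 0.030, 0.0079 and 1.5e-04). The Wx-A1 call was lost without Shengsimai replicate 2 at 0 h (0.97, adjusted p = 0.13), replicate 3 at 0 h (1.23, adjusted p = 0.057) or replicate 2 at 48 h (1.04, adjusted p = 0.10), and without the libraries labelled Zhoumai18 at 0 h (1.18, adjusted p = 0.072). The Wx-B1 call was lost without Shengsimai replicate 3 at 48 h (1.22, adjusted p = 0.065). From 48 to 96 h only 11.2% of all genes were called, and both Wx-D1 (2.41 ± 0.29, adjusted p = 5.1e-08) and Wx-B1 (-3.01 ± 0.55, adjusted p = 1.2e-04) were among them. Without Shengsimai replicate 2 at 96 h the Wx-B1 value was -4.64. The Wx-A1 value of -0.997 ± 0.43 did not pass (adjusted p = 0.15), and its 96 h libraries (15 to 18 counts) all lay below those of 48 h (32 to 43 counts). DESeq2 called this Wx-A1 decrease (-0.995, adjusted p = 0.015). Over the whole treatment, with 46.4% of all genes called, Wx-D1 rose by 4.51 ± 0.39 (adjusted p = 1.4e-12), from 2 to 5 counts per library to 113 to 129. Wx-A1 (0.19 ± 0.48) and Wx-B1 (-1.44 ± 0.67) did not pass (adjusted p = 0.92 and 0.080). The Wx-B1 value passed without Shengsimai replicate 2 at 96 h (-3.07, adjusted p = 0.0039) and in DESeq2 (-1.47, adjusted p = 0.036).

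Within the libraries labelled Zhoumai18, Wx-A1 fell and Wx-B1 rose at each step, the first of which starts from the 0 h libraries that stood apart. From 0 to 48 h, with 46.9% of all genes called, Wx-A1 fell (-2.99 ± 0.43, edgeR adjusted p = 3.7e-07), Wx-B1 was at least 9.06-fold higher (43 counts against 0, adjusted p = 9.9e-06) and Wx-D1 rose (1.51 ± 0.31, adjusted p = 1.1e-04). From 48 to 96 h, which involves no 0 h library and called 48.6% of all genes, Wx-B1 rose further (1.39 ± 0.42, adjusted p = 0.0063) and Wx-D1 fell (-1.28 ± 0.29, adjusted p = 3.6e-04). Wx-A1 went from 36 to 3 counts, a ratio of 0.0786 with an exact counting interval of 0.0155 to 0.249 (adjusted p = 8.9e-05). From 0 to 96 h, with 58.5% of all genes called, Wx-A1 went from 234 to 3 counts (ratio 0.0118, interval 0.00242 to 0.0350, adjusted p = 1.5e-11), Wx-B1 was at least 24.5-fold higher (127 counts against 0, adjusted p = 8.0e-09), and the Wx-D1 value of 0.23 ± 0.34 did not pass (adjusted p = 0.60).

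The difference between varieties in these changes was tested directly. Between 48 and 96 h, a period that does not use the libraries labelled Zhoumai18 at 0 h, the change of Wx-D1 was more positive in Shengsimai than in Zhoumai18 by 3.69 ± 0.41 and than in Baipimai by 2.94 ± 0.40 (Baipimai minus Shengsimai -2.94, edgeR adjusted p = 2.7e-09 and 2.5e-07). The change of Wx-B1 was more negative in Shengsimai than in Zhoumai18 (-4.39 ± 0.70, adjusted p = 3.5e-06) and than in Baipimai (Baipimai minus Shengsimai 3.28 ± 0.66, adjusted p = 2.2e-04). Shengsimai replicate 2 at 96 h set the size of the Wx-B1 values, which were -6.03 and 4.91 without it. Baipimai and Zhoumai18 did not pass in this period in Wx-A1, Wx-B1 or Wx-D1 (adjusted p = 0.26, 0.11 and 0.14). These tests called 31.9% (Shengsimai minus Zhoumai18), 24.5% (Baipimai minus Shengsimai) and 44.4% (Baipimai minus Zhoumai18) of all genes. The Wx-A1 tests between 48 and 96 h passed for Shengsimai against Zhoumai18 and Baipimai (adjusted p = 0.022 and 0.0074), but each used a group of 0 or 3 counts, and on the log2(FPKM + 1) scale the sign of both turned (-0.04 and 0.07, limma adjusted p = 0.51 and 0.23). The call against Zhoumai18 was also lost without Zhoumai18 replicate 2 (2.06, adjusted p = 0.089) or 3 (2.08, adjusted p = 0.086) at 96 h.

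From 0 to 96 h, the change of Wx-D1 was larger in Shengsimai than in Zhoumai18 by 4.28 ± 0.54 (edgeR adjusted p = 2.5e-08) and larger in Baipimai than in Zhoumai18 by 1.71 ± 0.49 (adjusted p = 0.0047), and Baipimai minus Shengsimai was -2.57 ± 0.58 (adjusted p = 6.7e-04). These tests called 39.3%, 39.7% and 26.1% of all genes. Wx-B1 rose in Baipimai relative to Shengsimai (4.04 ± 0.81, adjusted p = 1.8e-04), a value of 5.67 without Shengsimai replicate 2 at 96 h. The Wx-B1 tests against Zhoumai18 also passed (adjusted p = 0.0020 for Baipimai and 2.3e-07 for Shengsimai), with a starting group at 0 counts, and the sign for Baipimai turned on the log2(FPKM + 1) scale (0.13, limma adjusted p = 0.31). Wx-A1 passed for Shengsimai against Zhoumai18 and for Baipimai against Shengsimai (adjusted p = 1.4e-08 and 0.0051), and not for Baipimai against Zhoumai18 (adjusted p = 0.97). Each of these Wx-A1 tests used a group of 0 or 3 counts at 96 h. The last value was 1.33 ± 2.9, so it does not show equal changes. On the log2(FPKM + 0.1) scale this difference passed (2.69, limma adjusted p = 1.3e-09).

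The summed counts of the 3 copies, which do not depend on the copy a counted read was assigned to, were low at 0 h in both resistant varieties. The sum was 65, 62 and 283 counts over the groups at 0 h in Baipimai, Shengsimai and Zhoumai18, 460, 275 and 251 at 48 h, and 323, 414 and 210 at 96 h. Baipimai and Shengsimai were both lower than Zhoumai18 at 0 h (-1.96 ± 0.23 and -1.88 ± 0.23, edgeR adjusted p = 8.0e-09 and 1.8e-08) and both higher at 96 h (0.98 ± 0.20 and 1.28 ± 0.19, adjusted p = 5.2e-05 and 5.1e-07). At 48 h Baipimai was higher than Zhoumai18 (0.75 ± 0.19, adjusted p = 0.0017) and than Shengsimai (0.64 ± 0.19, adjusted p = 0.0062). The resistant varieties did not pass against each other at 0 h (-0.08 ± 0.28, adjusted p = 1) or 96 h (-0.30 ± 0.19, adjusted p = 0.22), although Wx-B1 and Wx-D1 differed in opposite directions at 96 h. From 0 to 96 h the sum rose in Baipimai (2.04 ± 0.23) and Shengsimai (2.26 ± 0.23) and fell in Zhoumai18 (-0.90 ± 0.20), with adjusted p = 1.4e-09, 8.6e-11 and 1.8e-04. The fall in Zhoumai18 starts from the 0 h libraries that stood apart. From 48 to 96 h, which does not use them, the sum in Zhoumai18 did not pass (-0.43 ± 0.20, edgeR adjusted p = 0.077).

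The makeup of the sum was compared as the share of each copy in the summed FPKM of a library. In Baipimai, Wx-A1 took 17.95% ± 16 (SD, n = 3), 5.61% ± 1.1 and 0% at 0, 48 and 96 h. In Shengsimai it took 52.1% ± 13, 40.3% ± 8.5 and 11.6% ± 0.49, and in Zhoumai18 83.3% ± 1.1, 14.1% ± 2.1 and 0.916% ± 1.6. The share of Wx-A1 thus declined with time in the group means of each variety, and it was lower in Baipimai than in Shengsimai at every time. Wx-B1 took 39.5%, 43.0% and 58.3% in Baipimai, 31.5%, 32.9% and 2.44% in Shengsimai, and 0%, 16.9% and 61.0% in Zhoumai18. Wx-D1 took 42.6%, 51.4% and 41.7% in Baipimai, 16.4%, 26.8% and 86.0% in Shengsimai, and 16.7%, 69.1% and 38.1% in Zhoumai18. Wx-D1 was therefore the main copy in Shengsimai only at 96 h, and in Zhoumai18 only at 48 h.

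Averaged over the times, the Wx-A1 share was lower in Baipimai than in Shengsimai, by a difference of -26.8 percentage points (exact permutation test within times, two-sided, p = 0.00025, adjusted p = 0.0022 over 9 tests), the smallest p these permutations allow. Baipimai minus Zhoumai18 was -24.9 points (exact permutation p = 0.0025, adjusted p = 0.0075). At 48 and 96 h alone, the difference from Zhoumai18 shrank to -4.69 points (exact permutation p = 0.050, adjusted p = 0.11) and that from Shengsimai was -23.2 points (p = 0.0050, the smallest allowed, adjusted p = 0.022). The Wx-B1 share was 24.6 points higher in Baipimai than in Shengsimai (exact permutation p = 0.0025, adjusted p = 0.0075) and 21.0 points higher than in Zhoumai18 (p = 0.0075, adjusted p = 0.017). The latter was 11.7 points at 48 and 96 h alone (exact permutation p = 0.15, adjusted p = 0.22). These tests average the differences over the times, so differences of opposite sign cancel. The Wx-D1 share in Shengsimai and Zhoumai18 was 26.8% and 69.1% at 48 h, but 86.0% and 38.1% at 96 h. A test that does not pass thus does not show equal shares at each time. The other 5 of the 9 tests did not pass (exact permutation, adjusted p = 0.83 each). Among them, Shengsimai minus Zhoumai18 in the Wx-A1 share went from 1.89 points over all times to 18.5 points at 48 and 96 h alone, where it passed (exact permutation p = 0.0050, adjusted p = 0.022).

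**Figure D4:**
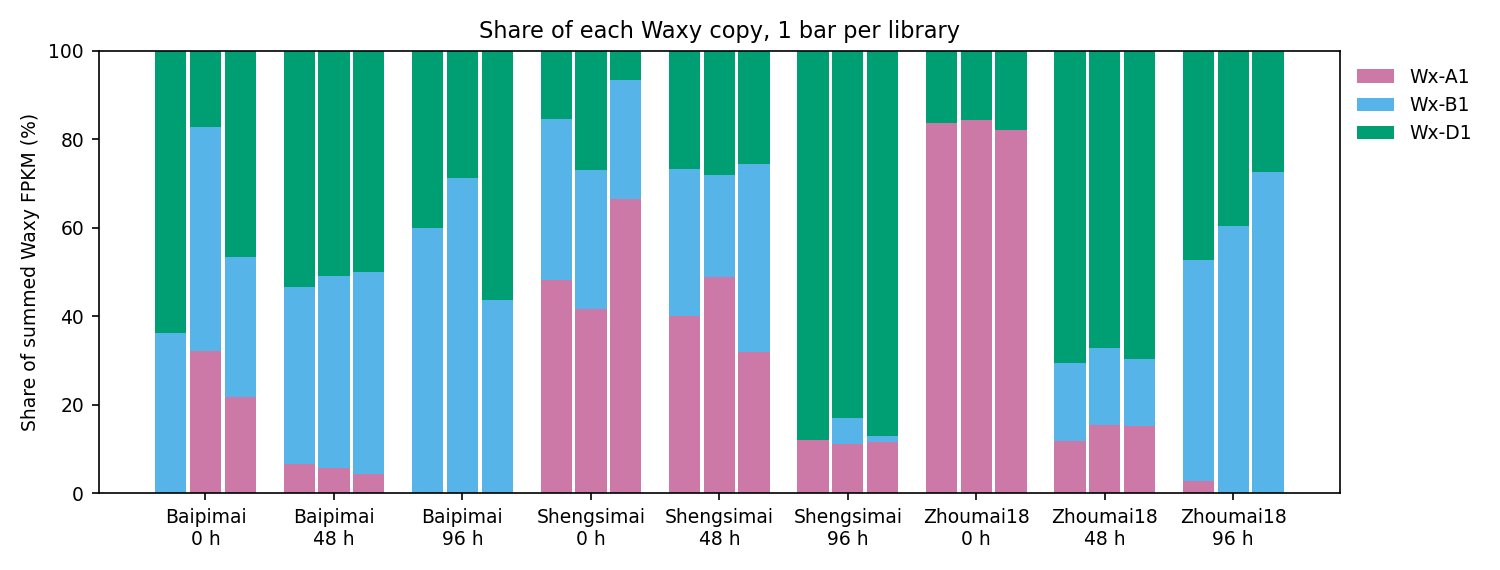
Share (%) of Wx-A1, Wx-B1 and Wx-D1 in the summed FPKM of the 3 copies, 1 bar per library, replicates 1 to 3 from left to right. Wx-A1 takes 83.3% on average in the libraries labelled Zhoumai18 at 0 h and none in Baipimai at 96 h, and Wx-D1 takes 86.0% in Shengsimai at 96 h.

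Other starch genes were expressed more strongly on the FPKM scale. A list of 24 identifiers of soluble starch synthases, branching enzymes, isoamylase, AGPase and sucrose synthase was drawn from background knowledge, and only 3 of them carry such a name in the table. Of the 24, 22 had a higher mean FPKM than Wx-D1 (list range 0.169 to 31.0, median 2.55). Sbe2 (TraesCS2A01G293400), a starch branching enzyme, had a mean of 18.7 FPKM, wSs2a-1 (TraesCS7D01G190100), a soluble starch synthase, 3.56, and Sbe1A (TraesCS7A01G549100), another branching enzyme, 2.08.

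From 0 to 96 h, 16 of the 24 identifiers rose and 1 fell in Baipimai, 16 rose and 4 fell in Shengsimai, and 19 rose and 4 fell in Zhoumai18, with median log2 fold changes of 0.71, 0.82 and 1.18 beside a median of 0 over all genes tested. These comparisons called 44.1%, 46.4% and 58.5% of all genes in either direction, and 55%, 56.3% and 54.3% of the genes called had risen. The shares over all genes include many genes expressed more weakly than those of the list. In Zhoumai18, Sbe2 rose from 7.15 to 34.4 FPKM (1.90 ± 0.08, edgeR adjusted p = 2.1e-21) while the Waxy sum fell. Both changes start from the libraries labelled Zhoumai18 at 0 h, which stood apart. At 96 h, 16 of the 24 were lower and 7 higher in Shengsimai than in Zhoumai18, and 13 were lower and 8 higher in Baipimai than in Zhoumai18, in comparisons that called 57.6% and 57.4% of all genes. Sbe1A was lower in both resistant varieties than in Zhoumai18 at 96 h (Baipimai -3.58 ± 0.15, Shengsimai -4.44 ± 0.16, edgeR adjusted p = 8.7e-22 and 1.3e-23), whereas the Waxy sum was higher in them. wSs2a-1 was higher in Shengsimai than in Zhoumai18 at 96 h (1.09 ± 0.11, edgeR adjusted p = 6.3e-11) and than in Baipimai (Baipimai minus Shengsimai -0.83 ± 0.11, adjusted p = 7.4e-08), as Wx-D1 was. The other copies listed for this synthase, TraesCS7A01G189100 and TraesCS7B01G093800, had their lowest group mean at 96 h in Shengsimai instead. It was 0.0342 and 0.662 FPKM, against 0.962 and 1.10 in Zhoumai18 and 0.138 and 2.73 in Baipimai.

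The genes next to each copy in identifier order were examined as well. Of the 30 neighbours, 5 on each side of each copy, 20 had a count in any library and 5 reached a mean of 1 FPKM. Single neighbours were named after their values were seen. TraesCS4A01G418100, which directly precedes Wx-B1, had 153 to 196 counts in the libraries labelled Zhoumai18 at 0 h and 1315 to 2585 in the other 24 libraries. Like Wx-B1, it was higher in Baipimai (3.13 ± 0.09) and Shengsimai (3.56 ± 0.09) than in Zhoumai18 at 0 h (edgeR adjusted p = 1.3e-25 and 3.6e-27). It did not follow Wx-B1 at the later times, with -0.09 ± 0.08 in Baipimai minus Zhoumai18 at 48 h (adjusted p = 0.43) and -0.19 ± 0.08 in Shengsimai minus Zhoumai18 at 96 h (adjusted p = 0.038), where Wx-B1 had 2.06 and -3.32. TraesCS7A01G070400, the third identifier after Wx-A1, had 163 to 371 counts in the libraries labelled Zhoumai18 at 0 h and none in Baipimai or Shengsimai at 0 h. At 48 and 96 h its counts were 2 to 36 in the libraries of Baipimai and Zhoumai18 and 0 in those of Shengsimai. Of the other 3 neighbours that reached a mean of 1 FPKM, 2 did not pass at 0 h in Baipimai minus Zhoumai18, with 0.02 ± 0.12 for TraesCS7A01G069600 before Wx-A1 and 0.01 ± 0.08 for TraesCS7D01G064400, which directly follows Wx-D1 (edgeR adjusted p = 1 each). TraesCS7D01G063900, before Wx-D1, was lower in Baipimai (-1.69 ± 0.11, edgeR adjusted p = 3.8e-15). In Shengsimai minus Zhoumai18 at 0 h, which called 37.0% of all genes, all 3 passed (edgeR adjusted p = 3.0e-04, 0.015 and 3.8e-20). Their values were -0.58 ± 0.13, 0.23 ± 0.08 and -2.65 ± 0.12, in the order TraesCS7A01G069600, TraesCS7D01G064400, TraesCS7D01G063900.

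By the pattern of log2(FPKM + 1) over the 9 group means, the genes most like each copy were sought among 22634 genes with a mean of at least 5 FPKM. For Wx-A1 they were TraesCS4D01G188700 (Pearson r = 0.93) and TraesCS3B01G018800 (r = 0.91), for Wx-B1 TraesCS3B01G454900 (r = 0.95) and TraesCS4B01G313400 (r = 0.93), and for Wx-D1 TraesCS6D01G191700 (r = 0.93) and TraesCS2B01G192800 (r = 0.92). By rank correlation other genes led for each copy, among them wali6 (TraesCS1B01G276900) for Wx-D1 (Spearman rho = 0.98). TraesCS4D01G188700 and TraesCS3B01G018800 had a rho of 0.67 and 0.68 with Wx-A1, at ranks 509 and 440. Between the copies, r was -0.49 for Wx-A1 and Wx-B1, -0.16 for Wx-A1 and Wx-D1 and 0.22 for Wx-B1 and Wx-D1. The copy pairs were fixed, whereas the genes above are the highest among 22634. A lower r would be likely for any fixed pairs, so no conclusion is drawn from it. These are descriptions over 9 groups from the same libraries.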

How the data were processed

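RNA-seq was performed in 27 libraries, 3 per variety and time, grouped by the deposited labels. A sequencing company made the libraries and values. The aligner, counter and genome build are not given in the sources used here. For each gene the authors deposited its count, not normalized, and its FPKM, scaled by the gene's length and the library's size. For the Waxy copies 1 count was worth 0.00500 to 0.0108 FPKM, so low FPKM values are not strictly proportional to counts. There was 1 malformed line, which was left out.

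The members and gene lists were chosen with earlier results of these data known. Counts were scaled by TMM and tested with edgeR 4.0.16 (R 4.3.3) in 1 fit of 9 group means, with adjusted p under 0.05 as the threshold. A filter of at least 1 FPKM in 3 or more libraries, set for the main test, kept Wx-D1 alone of the copies, through the 3 Shengsimai libraries at 96 h. The fit without it, listed as the other setting (at least 1 count, 135713 genes), is therefore reported, and the filter serves as the other setting. P-values measure the spread between these spikes. A fold against a group at 0 counts is the exact lower limit, the smaller of those with total counts and with TMM-scaled totals, and other ratios of counts use total counts. These limits were chosen after the data were seen. Floors and intervals (95%) cover counting error only. Copy shares were tested by exact permutation with scipy 1.17.1. Scripts were tested on simulated data.

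Alternatives were DESeq2 1.42.0, RLE factors, total counts, a fit of 2 groups at a time, a block for the replicate number, limma 3.58.1 on log2(FPKM + 1) and log2(FPKM + 0.1), shares of summed counts, and each library left out in turn. Added after the data were seen were leaving out the libraries labelled Zhoumai18 at 0 h, shares at 48 and 96 h alone, and the differences in change from 48 to 96 h. Replicates differed by more than sampling noise (chi-square per degree of freedom 2.84 to 11.5). Named were the 3 copies, the 2 genes most like each by Pearson correlation, lists by counts with the genes the table names, and neighbours as a group. The single neighbours and the gene given by rank correlation were chosen after their values were seen. Sequences and gene positions were not analysed here.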

Additional observations from a re-analysis of the deposited data

Results flagged for a closer look

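The changes with time differed between varieties by a direct test (edgeR, adjusted p under 0.05) in 14 of 18 tests of single copies, and in 4 of 6 tests of the summed counts, beside 24.5% to 44.4% of all genes called in the same comparisons. From 48 to 96 h, Shengsimai minus Zhoumai18 was 3.69 for Wx-D1, -4.39 for Wx-B1, 2.57 for Wx-A1 and 1.17 for the sum, on the log2 scale. Over the same hours, Baipimai minus Shengsimai was -2.94 for Wx-D1, 3.28 for Wx-B1, -4.95 for Wx-A1 and -0.94 for the sum. From 0 to 96 h, Baipimai minus Shengsimai was -2.57 for Wx-D1, 4.04 for Wx-B1 and -5.41 for Wx-A1. Against Zhoumai18 from 0 to 96 h, Wx-D1 differed by 1.71 in Baipimai and 4.28 in Shengsimai, and the sum by 2.94 and 3.16. Wx-B1 differed by -5.51 in Baipimai and -9.55 in Shengsimai, and Wx-A1 by 6.74 in Shengsimai. The values of Wx-A1 and those of Wx-B1 against Zhoumai18 from 0 h used a group with 0 to 3 counts, so their size depends on the small count added in the fit and is no bound. Groups of 3 libraries are too small for the test of a sample far from the others.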

How the results depend on the processing

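Over all alternatives, 69 of 105 results kept their direction and their side of the threshold, and 3 of 76 that passed turned direction under some alternative. Those 3 turned with limma on log2(FPKM + 1), where levels under 1 FPKM are compressed: Wx-A1 from 48 to 96 h, Baipimai minus Shengsimai (0.074) and Shengsimai minus Zhoumai18 (-0.040), and Wx-B1 from 0 to 96 h, Baipimai minus Zhoumai18 (0.13). Total counts in place of TMM factors shifted all genes of a comparison by 0.02 to 0.56 on the log2 scale. The filter of 1 FPKM gave values for Wx-D1 and the sum alone, and Wx-D1 passed it through the Shengsimai libraries at 96 h where it is high, so these values say nothing about stability. Depth limits every copy, since the highest count in any library was 129.

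A pairing of the spikes by replicate number was not evident. In none of 18 comparisons did every same-numbered pair correlate above 0.1 (r = -0.21 to 0.31). In 1 of them, Baipimai minus Shengsimai at 48 h, every library correlated best with its own number. From 0 to 48 h in Baipimai, r was 0.062, 0.19 and 0.31 for replicates 1 to 3. The check cannot show that pairing was absent. With the replicate block, 2 calls were lost, Wx-A1 in Baipimai minus Shengsimai at 0 h (-1.63, adjusted p = 0.053) and Wx-B1 in Shengsimai minus Zhoumai18 at 48 h (1.08, adjusted p = 0.056), and no other call changed. Where a value differs below, the cause was not tested.

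For Wx-A1 in Baipimai minus Shengsimai at 0 h, the call was also lost in the fit without Zhoumai18 at 0 h (-1.64), with the compared groups alone (-1.69), with total counts (-1.43) and with limma on log2(FPKM + 1) (-0.080). Leaving out 1 library gave -2.12 to -1.10. For Wx-B1 in Shengsimai minus Zhoumai18 at 48 h it was lost with RLE factors (1.07, adjusted p = 0.0502), total counts (0.97) and limma with pseudocounts of 0.1 (0.61) and 1 (0.16), and leave-outs gave 0.72 to 1.30. For Wx-B1 in Baipimai minus Zhoumai18 at 96 h it was lost with RLE factors (0.77) and total counts (0.72), and leave-outs gave 0.77 to 1.20. For Wx-B1 in Baipimai minus Shengsimai at 48 h leave-outs gave 0.77 to 1.34. For the sum in Zhoumai18 from 0 to 48 h (-0.47, edgeR adjusted p = 0.047) the call was lost with RLE factors (-0.46), the compared groups alone (-0.48), total counts (-0.20) and limma (-0.17 and -0.087), and leave-outs gave -0.62 to -0.37, lost in 5 of 6. The Wx-A1 rise in Shengsimai from 0 to 48 h was lost without Zhoumai18 at 0 h (1.18), with leave-outs of 0.97 to 1.39, and leave-outs gave 1.22 to 1.99 for Wx-B1.

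With limma on log2(FPKM + 1), calls were also lost for Wx-A1 in Baipimai from 0 to 96 h (-0.049; -5.02 with the compared groups alone) and for Wx-B1 in Baipimai (0.11) and Shengsimai (0.082) minus Zhoumai18 at 0 h. With log2(FPKM + 0.1), they were lost for Wx-A1 from 48 to 96 h, Baipimai minus Shengsimai (-0.19) and Shengsimai minus Zhoumai18 (0.35; leave-outs 2.06 to 5.46, lost without Zhoumai18 replicate 2 or 3 at 96 h), and for Wx-B1 from 0 to 96 h, Baipimai minus Zhoumai18 (-0.26).

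Calls were gained with limma at pseudocounts of 0.1 and 1 for Wx-A1 in Shengsimai from 0 to 96 h (0.49 and 0.10; leave-outs -0.030 to 0.40) and 48 to 96 h (-0.69 and -0.19; -0.995 with DESeq2), for Wx-A1 from 0 to 96 h, Baipimai minus Zhoumai18 (2.69 and 0.79), for Wx-D1 in Baipimai from 48 to 96 h (-0.67 and -0.29; -0.75 with total counts), and for Wx-B1 from 48 to 96 h, Baipimai minus Zhoumai18 (-1.04 and -0.28; -1.30 with DESeq2, -1.22 with the compared groups alone, -1.42 with total counts). They were gained with a pseudocount of 0.1 for Wx-A1 in Baipimai from 0 to 48 h (0.48), and with 1 for Wx-D1 in Baipimai minus Zhoumai18 at 48 h (0.16) and the sum in Baipimai from 48 to 96 h (-0.24) and in Baipimai minus Shengsimai at 96 h (-0.22). Total counts gave a call for Wx-D1 in Baipimai minus Shengsimai at 0 h (1.37; leave-outs 0.82 to 1.59, gained without Baipimai replicate 2). DESeq2 gave one for Wx-B1 in Shengsimai from 0 to 96 h (-1.47; leave-outs -3.07 to -0.88).

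Directions of differences that had not passed turned for the sum in Baipimai minus Shengsimai at 0 h (0.13 and 0.029 with limma, 0.11 with total counts, leave-outs -0.20 to 0.17), in Shengsimai minus Zhoumai18 at 48 h (-0.011 and -0.0065 with limma), and from 48 to 96 h, Baipimai minus Zhoumai18 (-0.080 and -0.085 with limma, -0.069 with total counts). They also turned for Wx-B1 in Baipimai from 48 to 96 h (-0.01 with a pseudocount of 0.1), for Wx-A1 from 48 to 96 h, Baipimai minus Zhoumai18 (0.16 and 0.035 with limma, leave-outs -2.88 to 0.52), and for Wx-D1 in Zhoumai18 from 0 to 96 h (leave-outs -0.065 to 0.37). For Wx-A1 in Baipimai minus Zhoumai18 at 96 h no value could be had without Zhoumai18 replicate 1, since no count remained.

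At 48 and 96 h alone, the share of Wx-A1 differed by -4.69 points in Baipimai minus Zhoumai18 and by 18.5 in Shengsimai minus Zhoumai18 (adjusted p = 0.022, exact permutation test), the share of Wx-B1 by 11.7 in Baipimai minus Zhoumai18, and the share of Wx-D1 by -9.82 in Baipimai minus Shengsimai and -7.03 in Baipimai minus Zhoumai18. Leave-outs gave -0.49 to 3.64 points for Wx-A1 in Shengsimai minus Zhoumai18, and for Wx-D1 -1.37 to 6.41 in Baipimai minus Shengsimai and -0.010 to 3.40 in Shengsimai minus Zhoumai18.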
